A study of Mus musculus with 6 samples.

Results

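The receptors for leukemia inhibitory factor (Lifr), leptin (Lepr) and oncostatin M (Osmr) were followed in mouse uterus after progesterone. So were Il6st (gp130), with which Lifr and Osmr pair, the kinase Jak1, the transcription factor Stat3 and its feedback inhibitor Socs3. All probe sets whose platform annotation named 1 of these 7 genes as the only gene were taken, which gave 15 of 12422 probe sets (controls left out) and 7 of the 8251 genes named in this way. Of these, 9 passed the filter on low values (above a floor of 6.60 on the log2 scale on at least 2 arrays), and at least 1 did so for each of the 7 genes. The 6 that did not pass were 4 of the 5 Lifr probe sets, 1 of 2 for Lepr and 1 of 2 for Socs3.

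The samples were whole uterine horns of 129/SvImJ wildtype females, 10 to 16 weeks old, an inbred strain, taken 14 days after the ovaries had been removed. The animals of 5 groups had received 0.2 mg progesterone in 0.1 mL sesame oil under the skin 6, 12, 15, 18 or 24 h earlier, and those of the other, called 0 h, had no injection. Each group was 1 RNA sample pooled from 8 horns of 4 mice on 1 Affymetrix array. There was thus no replicate of any time and no oil-only array among those analysed here, and a difference from 0 h cannot be told apart from an effect of injection, oil or the single 0 h pool. The number of arrays limits the precision of every value.

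LIF binds Lifr, which pairs with gp130, and the pair activates JAK kinases bound to the receptor tails. The JAKs phosphorylate STAT3, which enters the nucleus and switches on target genes, among them Socs3, whose product in turn blocks the receptor complex. In the mouse uterus LIF from the glands acts on the luminal epithelium and is needed for embryo implantation, and Stat3 and gp130 are needed there too. Leptin, a hormone of adipocytes, acts through the long form of Lepr, a receptor of the same family that also uses STAT3 and is also inhibited by Socs3, while oncostatin M in the mouse signals mainly through Osmr paired with gp130.

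The 6 arrays were close in level, with medians between 7.12 and 7.22 on the log2 scale. Across the 7731 probe sets analysed the 0 h array correlated with the progesterone arrays at r = 0.939 to 0.953, and progesterone arrays correlated with each other at 0.958 to 0.991, as a description of arrays without replicates. Markers of the cell types of uterine wall were present, with 11 of 14 genes of epithelium, 9 of 10 of stroma and 8 of 10 of smooth muscle analysed, while the stromal intermediate filament gene Vim and the endothelial Pecam1 did not pass the filter, with highest log2 values of 6.20 and 6.55. In whole tissue, fewer cells of a type and less RNA per cell cannot be told apart.

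Lifr and Lepr were the members with differences of at least 2-fold, and they differed in time course. Lifr fell, and was already lower at 6 h. Lepr was at 0.791 of its 0 h level at 6 h and near or below the floor from 12 h on, without passing the test over all 5 times. Il6st and Osmr were lower by less than 2-fold, and Stat3, Socs3 and Jak1 were at 0.79 to 1.29 times their 0 h level at each time. Of the 9 analysed probe sets, 0 rose and 1 fell when limma set the progesterone arrays as a group against 0 h (adjusted p under 0.05 over the 7724 probe sets tested), where 0.893% of all probe sets rose and 1.80% fell. Without adjustment 4 of the 9 had a p under 0.05, against 19.0% of all. At no time was 1 of the 9 at least 2-fold higher than at 0 h, where 1.41%, 1.83%, 2.05%, 1.14% and 1.06% of probe sets were at 6, 12, 15, 18 and 24 h.

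**Figure D1:**
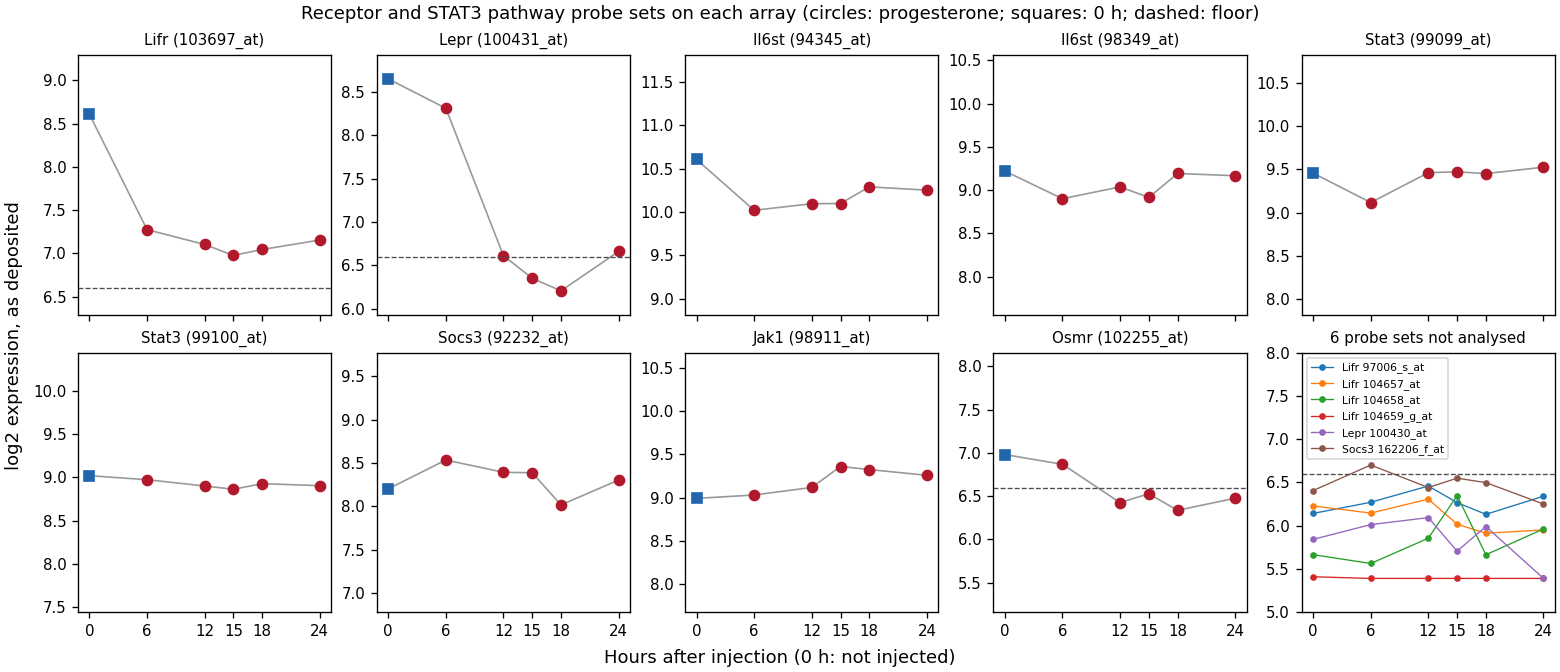
Log2 expression as deposited (vertical axes, each spanning 3 log2 units) against hours after injection for the 9 analysed probe sets. Circles mark the 5 progesterone arrays, a square marks 0 h and a dashed line the floor of 6.60. Lifr was at 7.28 at 6 h, against 8.61 at 0 h, and Lepr at 6.61 at 12 h, against 8.65 at 0 h, while the 6 probe sets of the last panel lay near or below the floor throughout.

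Start sites of the receptors and of Socs3 are shown for the contrast in elements. STAT3 dimers bind TTCNNNGAA, which reads the same on both strands, and receptors for progesterone and glucocorticoids bind elements built around TGTTCT. The GC box of many housekeeping promoters is GGGCGG. RefSeq windows (GRCm38.p6) from 250 bases before to 50 after each annotated start were searched on both strands. They covered all 7 genes with 9 windows, 2 each for Lifr and Lepr. Capitals mark every match to 1 of these motifs.
Lifr, chr15:7129322-7129621, plus strand: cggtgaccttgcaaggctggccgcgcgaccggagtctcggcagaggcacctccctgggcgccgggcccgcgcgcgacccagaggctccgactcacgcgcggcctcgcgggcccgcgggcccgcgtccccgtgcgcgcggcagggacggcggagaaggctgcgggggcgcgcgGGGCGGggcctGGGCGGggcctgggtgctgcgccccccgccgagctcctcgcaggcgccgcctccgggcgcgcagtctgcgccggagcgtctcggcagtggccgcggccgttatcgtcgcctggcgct
Lepr, chr4:101717656-101717955, plus strand: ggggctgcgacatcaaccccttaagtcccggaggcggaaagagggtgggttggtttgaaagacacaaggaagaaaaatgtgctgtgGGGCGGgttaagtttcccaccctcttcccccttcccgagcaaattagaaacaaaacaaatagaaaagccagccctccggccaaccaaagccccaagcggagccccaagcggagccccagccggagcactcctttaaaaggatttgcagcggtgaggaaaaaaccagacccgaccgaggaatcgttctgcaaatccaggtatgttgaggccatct
Socs3, chr11:117969317-117969616, minus strand: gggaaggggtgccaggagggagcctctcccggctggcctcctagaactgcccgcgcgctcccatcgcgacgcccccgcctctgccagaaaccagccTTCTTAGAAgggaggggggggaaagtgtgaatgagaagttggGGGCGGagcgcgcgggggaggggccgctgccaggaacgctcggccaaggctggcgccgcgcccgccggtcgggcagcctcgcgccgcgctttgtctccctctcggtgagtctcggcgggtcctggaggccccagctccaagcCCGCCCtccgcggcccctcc
The Socs3 window held TTCTTAGAA, beginning 154 bases before the start, and was the only one of the 9 with TTCNNNGAA, which 8.3% of all 32851 windows held. A match to TGTTCT, on the other strand, was found in the Stat3 window alone, 147 bases before the start, against 19% of all windows. GC boxes were in 7 of the 9, among them the Lifr window shown (2 matches), the Lepr window shown (1 match) and Socs3 (2 matches), against 35.7% of all windows. The Lifr window shown was rich in G and C, at 81.3% against a median of 52.7%. A match is a description of letters, and its absence from this window says nothing about binding elsewhere.

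Lifr, the binding subunit for LIF, had log2 levels of 8.61, 7.28, 7.10, 6.98, 7.05 and 7.16 at 0, 6, 12, 15, 18 and 24 h (probe set 103697_at). The 0 h array was above all 5 progesterone arrays, a pattern that 27.2% of probe sets with all values shared, while the progesterone arrays lay between 6.98 and 7.28. On the linear scale the levels were 0.397, 0.353, 0.323, 0.339 and 0.366 of the 0 h level at 6, 12, 15, 18 and 24 h. The mean of the progesterone arrays was 7.11 ± 0.11 (SD, n = 5), against 8.61 on the 0 h array, so the receptor fell by 1.50 ± 0.14 on the log2 scale (SE, limma, adjusted p = 0.00355). By this difference Lifr ranked 25 from the lowest of 7724 probe sets. At least 2-fold lower at all 5 times, as Lifr was, were 0.443% of probe sets.

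Among the progesterone arrays the lowest Lifr level was at 15 h and the highest at 6 h, and the linear trend over these 5 arrays was -0.17 ± 0.21 per 24 h (SE, limma, adjusted p = 0.714). The differences among these 5 times were thus small beside the difference from 0 h. The fall held in each fit that left out 1 progesterone array, with adjusted p between 0.0042 and 0.033. With the floor raised to the 60th percentile all progesterone values of this probe set lay at the floor and it no longer passed the filter. The difference was then a limit of -0.91.

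The other 4 probe sets with the Lifr symbol were below the floor on every array, with log2 values between 5.39 and 6.46. At that level no difference could be read, and the change of Lifr rests on 1 probe set.

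Lepr, the leptin receptor, was at 8.65, 8.32, 6.61, 6.35, 6.21 and 6.66 at 0, 6, 12, 15, 18 and 24 h (probe set 100431_at). The 0 h and 6 h arrays were thus high, and the other 4 lay between 6.21 and 6.66, around the floor of 6.60. With values below the floor set to it, the ratio to 0 h was 0.791, 0.243, at most 0.241, at most 0.241 and 0.251 at 6, 12, 15, 18 and 24 h. As deposited, without a floor, the log2 differences from 0 h at 15 and 18 h were -2.30 and -2.45.

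Between 6 and 12 h the Lepr level differed by -1.70, and 3 of 7724 probe sets, Lepr included, had a difference that low. At least 2-fold lower at 12 h than at 6 h were 0.259% of probe sets. Against 0 h, 1.10%, 1.75%, 1.58%, 1.80% and 1.39% of probe sets were at least 2-fold lower at 6, 12, 15, 18 and 24 h, Lifr among them each time and Lepr at all but the first. Lower by 2-fold at every time from 12 h and by less at 6 h, as Lepr was, were 0.391%.

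The 6 h array was nearer to 0 h than to the later times. The mean of the 5 progesterone arrays was thus 6.96 ± 0.76 (SD, n = 5), against 8.65 on the 0 h array. The difference of -1.70 ± 0.60 did not pass (SE, limma, adjusted p = 0.175). Left out of the fit, the 6 h array gave -2.04 with an adjusted p of 0.000962, and the fits without another array gave 0.277 to 0.338. Values of 2 of the 4 remaining progesterone arrays are at the floor there, which narrows the spread, so that p can be too small. A linear trend over all 6 arrays was -2.36 ± 0.49 per 24 h (adjusted p = 0.0875, or 0.045 without the 24 h array), and over the progesterone arrays alone -1.99 ± 0.67 (adjusted p = 0.142, and 0.10 per 24 h without 6 h).

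A second Lepr probe set (100430_at) was below the floor on all arrays, between 5.39 and 6.09. Leprot, the gene next to Lepr on chromosome 4, whose product affects the amount of leptin receptor at the cell surface, was not lower after progesterone. Its levels were 9.26 at 0 h and 9.73, 9.94, 9.95, 9.44 and 9.65 at 6, 12, 15, 18 and 24 h, a difference of 0.48 ± 0.20 that did not pass (SE, limma, adjusted p = 0.246). Leprot was chosen for its position, after the Lepr values were known.

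**Figure D2:**
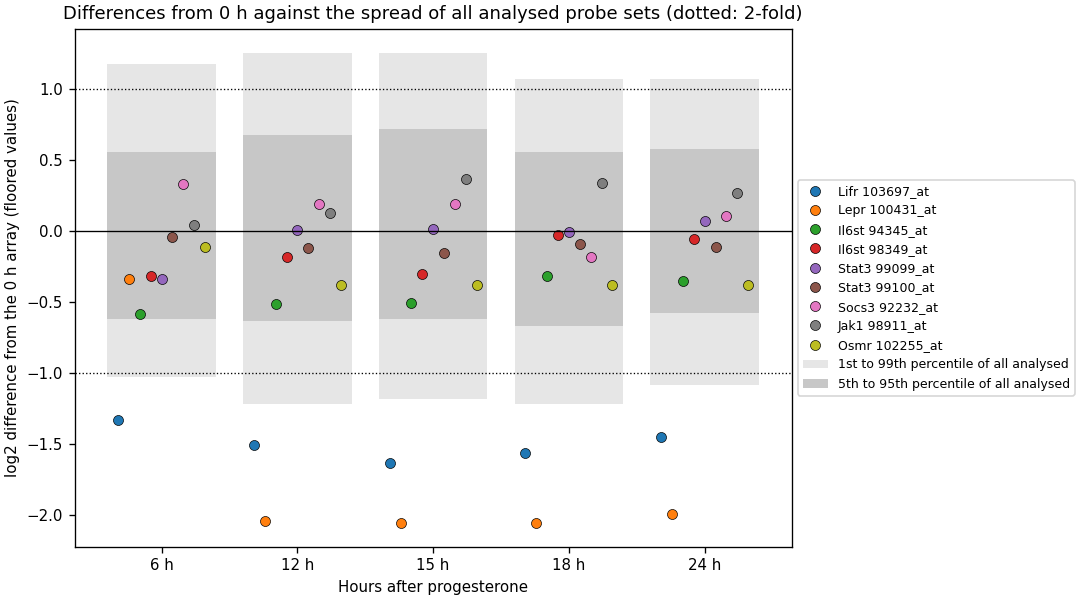
Log2 difference from the 0 h array (vertical axis) at each time after progesterone for the 9 analysed probe sets, over bars that span the 1st to 99th (light) and 5th to 95th (dark) percentiles of all analysed probe sets. Lifr lay below the light bar at every time, at -1.33 to -1.63, and Lepr from 12 h on, while the other members lay within it.

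Osmr, the oncostatin M receptor subunit, was at the lower end of what the arrays measured, with levels of 6.98, 6.87, 6.43, 6.53, 6.34 and 6.48 at 0, 6, 12, 15, 18 and 24 h. The first 2 were above the floor and the later 4 below it, so its difference of -0.33 ± 0.13 is compressed (SE, limma, adjusted p = 0.215). As deposited the differences at 12, 15, 18 and 24 h were -0.55, -0.45, -0.64 and -0.50. Osmr passed without the 6 h array (adjusted p = 0.0263, against 0.257 to 1 under the other alternatives), where all 4 progesterone values are equal at the floor, so the spread of that fit is too narrow. Osmr and Lifr are neighbours on chromosome 15, with 0 protein-coding genes between them in the RefSeq annotation.

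Il6st, the signal-transducing subunit that all receptors of the LIF and oncostatin M group share, was measured well above the floor by both of its probe sets. The first (94345_at) was at 10.61, 10.02, 10.09, 10.10, 10.29 and 10.25 at 0, 6, 12, 15, 18 and 24 h. The second (98349_at) gave 9.22, 8.90, 9.04, 8.92, 9.19 and 9.17 in the same order. On both, the 0 h array was highest and the 6 h array lowest, and the 18 and 24 h arrays lay between them.

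Neither Il6st difference passed. The mean of the progesterone arrays on the first probe set was 10.15 ± 0.11 (SD, n = 5), against 10.61 on the 0 h array, a difference of -0.46 ± 0.14 (SE, limma, adjusted p = 0.122), and on the second -0.18 ± 0.16 (adjusted p = 0.603). The ratio to 0 h was 0.666 and 0.801 at 6 h on the 2 probe sets and 0.782 and 0.963 at 24 h.

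Jak1, the kinase most needed by receptors that use gp130, was at 8.99, 9.03, 9.12, 9.36, 9.32 and 9.26 at 0, 6, 12, 15, 18 and 24 h. All 5 progesterone arrays were above 0 h, as for 20.4% of probe sets, by at most 1.29-fold, and the difference of 0.23 ± 0.16 did not pass (SE, limma, adjusted p = 0.495).

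Stat3 itself stayed close to 0 h on both probe sets. The first (99099_at) was at 9.46, 9.12, 9.46, 9.47, 9.45 and 9.52 at 0, 6, 12, 15, 18 and 24 h, so that only the 6 h array stood apart, at 0.79 of the 0 h level. The second (99100_at) did not show the 6 h dip and was at 9.02, 8.97, 8.90, 8.86, 8.93 and 8.90. Their differences from 0 h were -0.05 ± 0.17 and -0.11 ± 0.12 (SE, limma, adjusted p = 0.906 and 0.7). These values are RNA levels, and the phosphorylation that activates STAT3 was not measured.

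Socs3, the inhibitor that STAT3 induces and whose promoter holds the STAT motif shown, was at 8.20, 8.54, 8.39, 8.39, 8.02 and 8.30 at 0, 6, 12, 15, 18 and 24 h (probe set 92232_at). All but 1 of the progesterone arrays were above 0 h and the 18 h array below it. The mean difference was 0.13 ± 0.19 (SE, limma, adjusted p = 0.788), and the trend over the progesterone arrays was -0.43 ± 0.27 per 24 h (adjusted p = 0.409). Its second probe set (162206_f_at) was above the floor only at 6 h, at 6.70, the time at which the first was highest too.

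Over the trends, limma called 0 of the 9 probe sets across all 6 arrays, where 0.194% of all probe sets rose and 0.116% fell, and 0 of the 9 across the 5 progesterone arrays, where 1.02% rose and 0.880% fell. At an unadjusted p under 0.05 there were 3 of the 9 in the first (16.2% of all) and 2 of the 9 in the second (21.4% of all).

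Genes with a time course most like that of Lifr also dropped by 6 h and stayed low. Over the 6 arrays, the 5 probe sets of other genes with the highest Pearson correlation among 468 candidates with a log2 range of at least 1 were those of Gem, a small GTPase (r = 0.998), Pnrc1, a nuclear receptor coactivator (r = 0.996), Dapk2, a death-associated kinase (r = 0.992), Irs2, an adaptor of the insulin and IGF receptors (r = 0.991), and Arhgef3 (r = 0.987). Arhgef3 was at 8.72, 7.92, 7.60, 7.67, 7.64 and 7.71 at 0, 6, 12, 15, 18 and 24 h. In the same order Irs2 was at 7.89, 6.70, 6.65, 6.60, 6.60 and 6.81, of which the 15 and 18 h values are the floor. Their differences from 0 h over the 5 times ranged from -1.22 for Irs2 to -0.91 for Dapk2, which the choice for likeness fixes, so they were not tested.

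The genes most like Lepr were high at 0 and 6 h and low from 12 h. They were Hspa2, a heat shock protein of the HSP70 family (r = 0.996), Gdpd3, a glycerophosphodiesterase (r = 0.990), Nbl1, a secreted BMP antagonist (r = 0.986), Itgb5, an integrin subunit (r = 0.982), and Gadd45b, a stress-response protein (r = 0.981). Gdpd3 was at 11.37, 10.76, 9.57, 9.54, 9.42 and 9.62 at 0, 6, 12, 15, 18 and 24 h. Hspa2 and Gadd45b reached the floor, and the second probe sets of Itgb5 and Gadd45b gave smaller differences, of -0.25 and -0.37. All these correlations share the same 6 arrays, so they describe likeness of course only.

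**Figure D3:**
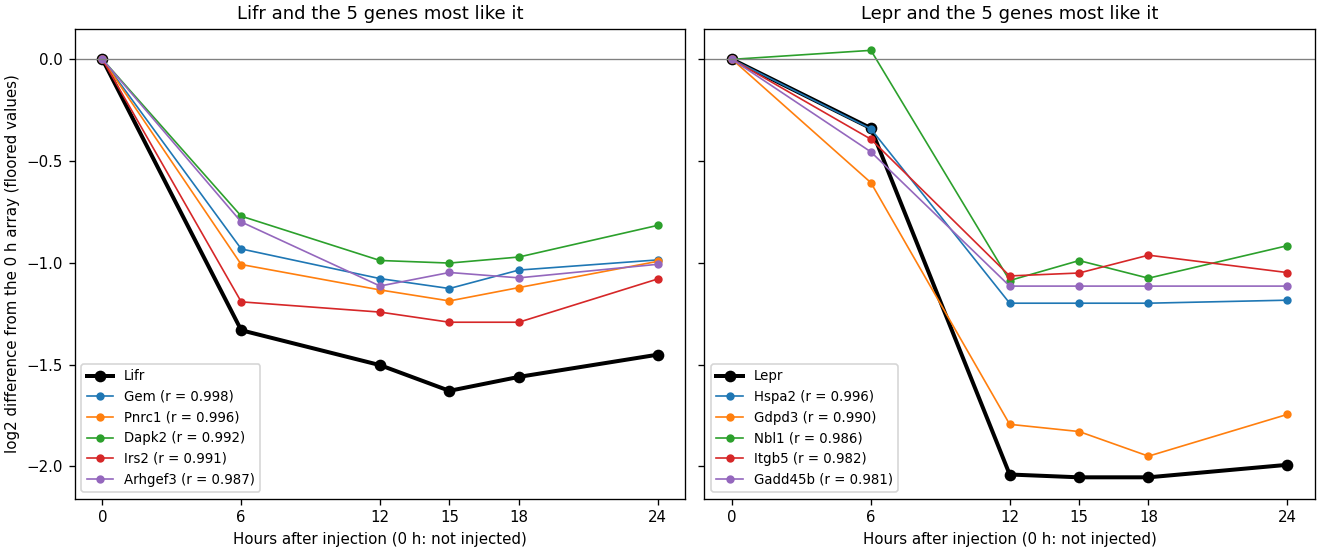
Log2 difference from the 0 h array, on floored values, against hours after injection for Lifr (left, black) and Lepr (right, black) and the 5 genes with the highest Pearson correlation to each over the 6 arrays. The Lifr group was low at 6 h already, and the Lepr group from 12 h on, at -2.04 for Lepr at 12 h.

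Of the other ligands, receptors, kinases, STATs and inhibitors, taken with the highest probe set per gene, limma called 0 of 27 analysed genes in each of the 3 fits, which is near the shares of all probe sets called, and 3 had an unadjusted p under 0.05 against 0 h (19.0% of all). A second probe set of Ghr did pass. Medians of these lists lay between -0.17 and 0.25 at the 5 times, beside medians of all analysed probe sets between -0.05 and 0.03.

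Among ligands, the gp130 ligand cardiotrophin 1 (Ctf1) was at 8.20 at 0 h and at 8.37, 8.45, 8.51, 8.59 and 8.68 at 6, 12, 15, 18 and 24 h. It was higher at each time than at the time before, but neither its difference of 0.32 ± 0.15 nor its trend over all arrays passed (SE, limma, adjusted p = 0.304 and 0.171). Leptin itself (Lep) differed by -0.10 ± 0.14 (adjusted p = 0.753). Il6 and Il11 were below the floor on every array, with highest values of 6.11 and 5.39, and no probe set was annotated to Lif, Osm or Clcf1 alone.

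Il6ra, the interleukin 6 receptor that pairs with gp130, had the course of Osmr at a similarly low signal. It was at 6.93 and 6.83 at 0 and 6 h and below the floor at the later times, between 5.79 and 6.18 (limma, adjusted p = 0.241). Il13ra2, a decoy receptor for interleukin 13, lay the other way. It was at the lowest value of the table at 0 h (5.39) and at 7.62, 7.53, 7.35, 7.15 and 7.16 at 6, 12, 15, 18 and 24 h. Measured from the floor these are differences of at least 1.02, 0.93, 0.75, 0.55 and 0.56 (limma, adjusted p = 0.0866).

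Growth hormone receptor, Ghr, a relative of Lepr, had probe sets that disagreed. The one with the higher mean differed by -0.42 ± 0.20 (SE, limma, adjusted p = 0.294). On the other, named after its value was seen, Ghr fell by 0.81 ± 0.11 (adjusted p = 0.016), with differences between -0.92 and -0.68. Il4ra, the receptor for interleukins 4 and 13, differed by -0.35 ± 0.13 (adjusted p = 0.196).

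Jak2, the kinase that leptin receptor binds, was lower on all 5 progesterone arrays by 0.05 to 0.58, without passing (limma, -0.31 ± 0.22, adjusted p = 0.504). Tyk2, Stat5a and Stat5b differed by at most 0.03 over the 5 times on average. Of the other inhibitors, Socs1 and Socs2 were higher at each time, by 0.06 to 0.38 and 0.10 to 0.40, and did not pass (adjusted p = 0.447 and 0.505), and Cish differed by -0.11 ± 0.14 (adjusted p = 0.732).

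Known STAT3 target genes, which other pathways regulate too, lay on both sides of 0 h but more often had a downward slope over the progesterone times than an upward one. Of 32 genes listed, 28 were analysed, of which 15 had a median difference from 0 h below 0 and 13 above it. Their trend over the progesterone arrays was below 0 for 22 and above it for 6, against 46.4% below 0 among all probe sets tested. The list was chosen with earlier results of these data known, so these shares and those below describe the list and do not test it. Against 0 h, limma called 0 that rose and 1 that fell (0.893% and 1.80% of all probe sets), and 10 of the 28 had an unadjusted p under 0.05 (19.0% of all). Their median difference was 0.11, 0.01, -0.07, -0.23 and -0.19 at 6, 12, 15, 18 and 24 h, where all analysed probe sets had -0.05, 0.03, 0.03, -0.04 and 0.00.

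Haptoglobin (Hp), a secreted hemoglobin-binding protein, was the target that fell, by 1.03 ± 0.20 (SE, limma, adjusted p = 0.0418). Its levels were 7.84 at 0 h and 7.06, 7.05, 6.59, 6.52 and 6.75 at 6, 12, 15, 18 and 24 h, with 15 and 18 h below the floor. The call was lost under 8 of 12 alternatives, namely without the 12, 15, 18 or 24 h array (adjusted p of 0.09 to 0.11), with values as deposited (0.0531), a floor at the 20th percentile (0.0682), centred arrays (0.0504) or no filter (0.163). Further targets were lower at every time without passing. The acute-phase gene Saa3 had a mean difference of -1.04 ± 0.23, the repressor Bcl6 of -1.14 ± 0.29, and the transcription factor Cebpd of -0.88 ± 0.28 (limma, adjusted p = 0.0611, 0.0852 and 0.14). Myc, a growth regulator, was higher at every time, by 1.44 at 6 h and 0.83 at 24 h, again without passing (adjusted p = 0.094).

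Across the progesterone arrays 0 targets rose and 4 of the 28 fell with time, where 1.02% of all probe sets rose and 0.880% fell. Lcn2, a secreted protein that binds iron carriers, was at 8.77, 7.87, 6.87, 5.84 and 5.85 at 6, 12, 15, 18 and 24 h, beside 7.63 at 0 h. Cebpb, a transcription factor that mouse uterine stroma needs to decidualize, was at 8.90, 8.05, 7.70, 7.56 and 7.39, beside 8.53 at 0 h. Both were above 0 h at 6 h, and Cebpb was below it from 12 h on and Lcn2 from 15 h on.

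The angiogenic factor Vegfa fell by 1.62 ± 0.20 per 24 h (SE, limma, adjusted p = 0.0181) and the immediate-early gene Fos fell by 1.82 ± 0.33 (adjusted p = 0.0423). For Lcn2 and Cebpb the trends were -3.11 ± 0.52 and -2.0 ± 0.33 (adjusted p = 0.0369 and 0.0353). Fos was at 7.93, 7.15, 6.81, 6.39 and 6.41 at 6, 12, 15, 18 and 24 h, beside 6.19 at 0 h. Lcn2 and Fos were below the floor at 18 and 24 h, and Fos also at 0 h. Their slopes thus rest on floored values, which narrows the spread. None of the 4 calls held without the 6 h array (adjusted p of 0.31 to 0.40), nor without the array of 12, 15 or 18 h, and Vegfa was lost without 24 h as well (0.0762). Over all probe sets those fits called 0 without 6, 12 or 18 h, 14 without 15 h and 36 without 24 h. At an unadjusted p under 0.05, 17 of the 28 targets had a trend, 14 of them downward, against 21.4% of all probe sets in either direction. The second probe set of Lcn2 was above the floor at 6 h only. For Nfil3, a transcription factor, the 2 probe sets disagreed. The one with the higher mean had a trend of 0.28 ± 0.18 (adjusted p = 0.425), and on the other, named after its value was seen, Nfil3 fell by 1.84 per 24 h (adjusted p = 0.0305).

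**Figure D4:**
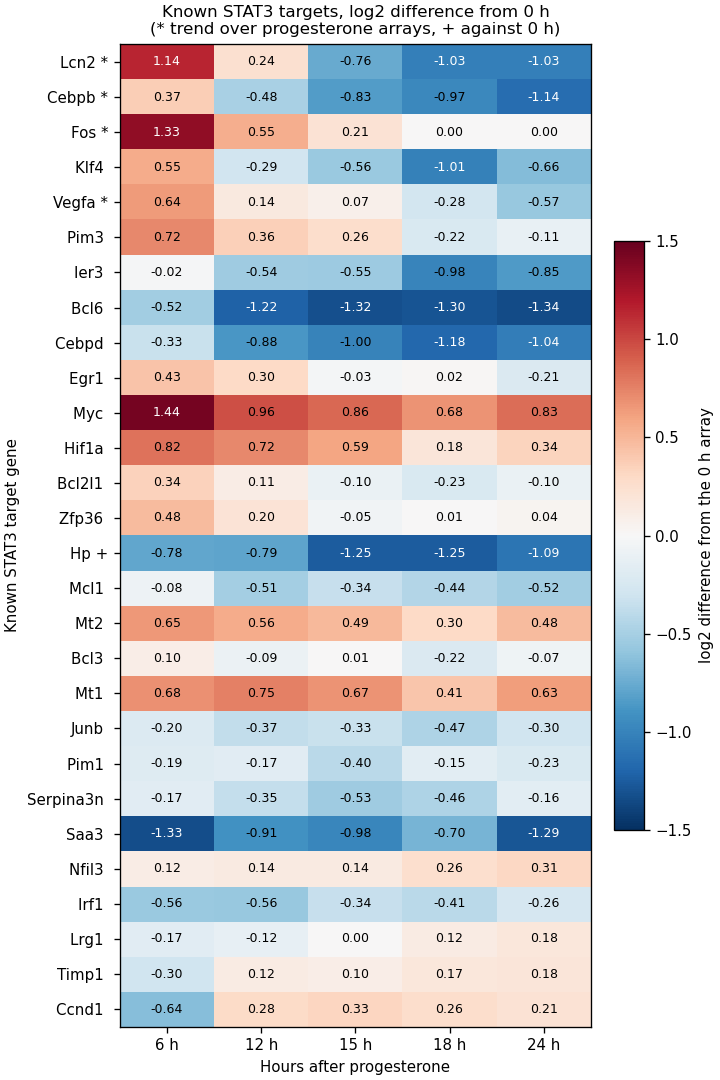
Log2 difference from the 0 h array at each time after progesterone for the 28 analysed known STAT3 target genes, ordered by their trend over the 5 progesterone arrays, with the value in each cell. A star marks a trend that passed and a plus a difference from 0 h that passed, and the starred genes Lcn2, Cebpb, Fos and Vegfa were above 0 h at 6 h, Lcn2 by 1.14, and nearer to or below 0 h at 24 h.

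Markers of several cell types were lower on the same arrays as Lifr and Lepr. Summed over the 11 analysed epithelium markers, the linear level was 7818 to 9244 on the progesterone arrays, against 10599 at 0 h, and the list's median difference lay between -0.62 and -0.43. Krt18 and Epcam fell, by 1.03 ± 0.16 and 1.12 ± 0.14 (SE, limma, adjusted p = 0.024 and 0.01), while Cldn3 was higher at each time by 0.26 to 0.56 (adjusted p = 0.13). The part of epithelium in the Lifr difference of -1.50 was not tested.

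Adipocyte markers, which uterine horns can carry from attached fat, had sums of 1207 to 2506 on the progesterone arrays, against 4099 at 0 h, over the 6 of 7 analysed genes with all values. Their median differences were -0.64, -0.62, -1.18, -0.74 and -0.87 at 6, 12, 15, 18 and 24 h. Lepr was at 8.32 at 6 h, against 8.65 at 0 h, and the part of attached fat in its levels was not tested. Against 0 h, limma called 0 of these 6 genes (0.893% of all probe sets rose and 1.80% fell), and 4 of the 6 had an unadjusted p under 0.05 (19.0% of all). Lpl had no 0 h value and was not in that fit. Fabp4 and Cidec were below the floor on every array. Mean differences ranged from -1.68 ± 0.55 for Adipoq and -1.47 ± 0.54 for Car3 to -0.05 ± 0.23 for Slc2a4 (SE, limma, adjusted p = 0.149, 0.196 and 0.927).

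Endothelium markers summed to 3618 to 4107 on the progesterone arrays, against 4764 at 0 h. The list's median differences were -0.22, -0.12, -0.06, -0.07 and 0.04 at 6, 12, 15, 18 and 24 h. The junction gene Cldn5 was the 1 of 9 analysed genes that passed (1.80% of all probe sets fell). Cldn5 fell by 1.29 ± 0.16 (SE, limma, adjusted p = 0.0104). It was at 10.13 at 0 h and 8.84 at 24 h, so the lower sum rests in large part on this gene. Leukocyte markers summed to 4659 to 5193 on the progesterone arrays, against 5833 at 0 h. Stroma markers summed higher, with 16728 to 22070 on the progesterone arrays, against 15661 at 0 h, and smooth muscle markers had 16013 to 22701, against 16709. In the stroma list 7 of 9 genes had a median difference above 0, among them the collagens Col1a1 (1.35), Col3a1 (0.85) and Col1a2 (0.78). Dcn (-0.31) and Lum (-0.26) were the 2 below 0, and Pdgfra was at 0.02. The trend over progesterone arrays called 3 of the 9 upward (1.02% of all probe sets). The part of any of these cell types in the levels of Lifr, Lepr or the STAT3 targets was not tested.

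**Figure D5:**
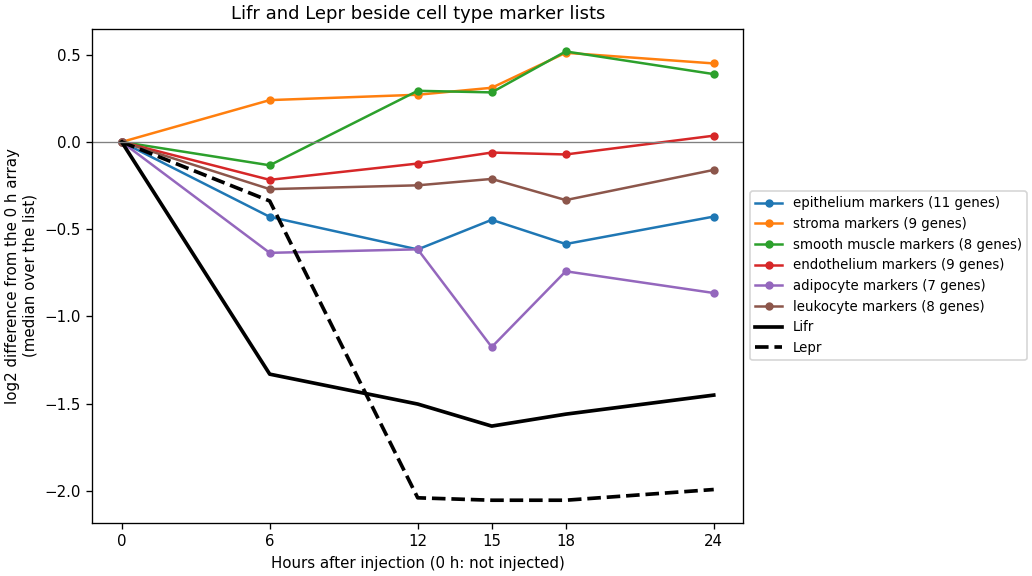
Log2 difference from the 0 h array against hours after injection for Lifr (solid black), Lepr (dashed black) and the medians of 6 cell type marker lists. The epithelium list lay between -0.62 and -0.43 and the adipocyte list between -1.18 and -0.62, above Lifr at every time.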

How the data were processed

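The deposited table holds log2 expression per probe set for 6 Affymetrix arrays. The base was read from the values: 2 raised to values under 2000 had at most 4 decimals in 99.8% of cases (tolerance 0.05 in the last decimal place), and powers of the natural base in 6.42%. For background correction, normalization and software, the sources used here give nothing. Per the labels' protocols, labelling followed the array maker. Left out were 65 controls, and 121 missing values stayed missing (none in members). Values were used as deposited and set to a floor, the 40th percentile (6.60). Analysed were the 7731 probe sets above it on at least 2 arrays. Differences that involve the floor are limits, and the floor narrows the spread between arrays.

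Names came from the platform annotation. With R 4.3.3 and limma 3.58.1 (lmFit, eBayes with an intensity trend, Benjamini-Hochberg over all probe sets tested), the 5 progesterone arrays were compared with 0 h, and hours were fitted as a number over all 6 and over the 5 progesterone arrays. The spread is that between times, with 4 or 3 residual degrees of freedom, and for the lone 0 h array the same spread was assumed. The fits were also run on simulated data in which every array, 0 h included, had the same independent spread. That run takes this assumption as given and cannot test it. Alternatives were other floors, filters, scalings, no intensity trend and each progesterone array left out. Named were all member probe sets, pathway genes called plus up to 4 more per list by median difference (1 probe set per gene, the highest mean), and the 5 genes most like Lifr and Lepr, and further genes where a count or list was described. Members and lists were chosen with earlier results of these data known.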

Additional observations from a re-analysis of the deposited data

Results flagged for a closer look

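On floored values, 3 of the 9 analysed member probe sets had 1 progesterone array far from the other 4, by the gap to the nearest one relative to the whole range, as had 8.79% of all probe sets tested. In all 3 it was the 6 h array. Lepr was at 8.32 at 6 h, with the other progesterone arrays between 6.60 and 6.66 on floored values. Stat3 (99099_at) was at 9.12, with the others between 9.45 and 9.52. Osmr was at 6.87, with the others all at the floor of 6.60, so its gap is the whole range by construction. On values as deposited the gap of Osmr was 0.641 of the range, below the limit used, while Lepr (0.784) and Stat3 (0.819) stayed above it. The limit used, 0.71 of the range, is one that about 1 of 20 groups of 5 replicates with a normal spread would pass. The 5 arrays are different times rather than replicates, and the floor makes values equal, so that rate does not apply here. What sets the 6 h array apart for these genes was not tested.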

How the results depend on the processing

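With 1 array per time, nothing here separates a change with progesterone from a property of 1 pool. Signal over background limits Osmr, Lepr from 12 h and 6 further member probe sets. No paired analysis was possible because each group is 1 array and the labels carry no replicate numbers. The fall of Lifr kept its direction and stayed past the threshold in all 13 alternatives that gave it a value. Its values lay above the floor on all arrays. A lower floor, no floor, other filters at the main floor and no intensity trend thus returned the same difference of -1.50 by construction. No alternative left out the 0 h array, on which the difference rests. With the floor at the 60th percentile and its own filter Lifr and Osmr left the probe sets analysed, so 0 members were called. With that floor and the filter kept (an alternative chosen after seeing the data), Lifr differed by -0.91, at a p that has no spread behind it. Members called against 0 h were 1 to 3 with an array left out (Lepr and Osmr joined without 6 h), 0 to 1 in the trend over all arrays (Lepr without 24 h), and 0 in the trend over progesterone arrays. Of 431 values for single probe sets, 382 kept direction and side of the threshold, 37 lost the call (8 of them for Hp and 8 for Vegfa, and 7 each for Fos, Cebpb and Lcn2), 3 gained it and 9 changed sign. With an array left out, the sign changed for Stat3 99099_at against 0 h (-0.081 to 0.021), for the trend over all arrays of Il6st 98349_at (-0.077 to 0.073) and Socs3 (-0.19 to 0.019), and for the trend over progesterone arrays of Lifr (-0.53 to 0.18), Lepr (-3.53 to 0.10) and Stat3 99100_at (-0.13 to 0.039), each time without 6 h, for Il6st and Socs3 also without 18 h and for Il6st without 24 h. None of these passed in either fit. Over all probe sets, 208 were called against 0 h and 42 to 590 with an array left out (the most without 6 h, the fewest without 12 h), or 326 with the 60th percentile floor and the filter kept, 31 higher and 295 lower. The trend over all arrays called 24, and 0 to 52 with an array left out, 53 with no floor, 0 with no filter (1219 unadjusted) or with the 60th percentile floor and the filter kept (887 unadjusted), 10 with quantile normalization (5 higher, 5 lower) and 13 with centred arrays. For progesterone arrays alone it called 147, and 0 to 36 with an array left out, 71 with the 60th percentile floor or 1 with the filter kept as well, 285 with no floor, 0 with no filter (1486 unadjusted), 252 with probe sets above the floor on all arrays and 251 with quantile normalization. Counts at 2-fold from 0 h for 6, 12, 18 and 24 h were 194, 276, 227 and 189. With the 60th percentile floor they were 118, 179, 149 and 116, and with the filter kept 123, 183 and 119 for 6, 12 and 24 h.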
